A study of Mus musculus with 17 samples.

Results

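Sodium, calcium and pacemaker channels carry the inward currents of excitable cells, and the 30 genes described here encode their subunits. The members were chosen by name, and all 30 were found among the 26131 genes of the count matrix. They comprise 7 pore-forming alpha subunits of voltage-gated sodium channels (Scn1a, Scn2a, Scn3a, Scn4a, Scn7a, Scn8a and Scn9a), 3 sodium channel beta subunits (Scn2b, Scn3b and Scn4b), the leak channel gene Nalcn, 8 pore-forming alpha1 subunits of calcium channels (Cacna1a, Cacna1b, Cacna1c, Cacna1d, Cacna1e, Cacna1g, Cacna1h and Cacna1i), 4 alpha2delta subunits (Cacna2d1 to Cacna2d4), 4 calcium channel beta subunits (Cacnb1 to Cacnb4) and 3 hyperpolarisation-activated cation channels (Hcn2, Hcn3 and Hcn4).

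Sodium channel alpha subunits open on depolarisation and carry the upstroke of the action potential, while their beta subunits alter gating and surface targeting. The calcium channel alpha1 genes fall into L-type (Cacna1c, Cacna1d), P/Q-type (Cacna1a), N-type (Cacna1b), R-type (Cacna1e) and low-voltage-activated T-type channels (Cacna1g, Cacna1h, Cacna1i). Their alpha2delta and cytoplasmic beta subunits bring the high-voltage-activated channels to the membrane. HCN channels open on hyperpolarisation and pace rhythmic firing, and the sodium leak channel NALCN sets resting excitability.

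Single-nucleus RNA was counted in the posterior brain of 17 female mice aged 2.3 months, all of them hTfR KI HOM, that is, with both copies of the transferrin receptor (TfR) locus carrying a human knock-in, controls included. They were dosed intravenously 4 times over 24 days and sampled 72 hours after the last dose. Controls received saline (n = 4). Malat1 ASO is a free antisense oligonucleotide against the nuclear RNA Malat1 (2 mg per kg, n = 4), anti-TfR:Malat1 carries it on an antibody against TfR (50 mg per kg, n = 6), and OTV:Malat1 carries it on a transport vehicle that binds TfR (50 mg per kg, n = 3). No group without the knock-in was used. The labels number the samples within a group; where they do not come from separate mice, p-values measure only the spread between samples, and below each sample is called an animal. The comparisons asked whether channel genes differed between each agent and saline, and between the TfR-binding agents.

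The animals gave 13841 to 18365 nuclei and 55393588 to 79866411 UMIs each. Levels are in CPM, the UMIs of a gene per 1e+06 UMIs of the named nuclei in an animal, as the mean ± SD of the 4 saline animals unless stated. Malat1 served as a check of the OTV:Malat1 label only: in oligodendrocytes of OTV:Malat1 animals it made up between 1.29% and 1.64% of UMIs. The corresponding ranges were 5.87% to 8.71% with anti-TfR:Malat1, 7.13% to 11.8% with the free oligonucleotide and 7.96% to 12.1% with saline. The ranges of these other groups overlapped, so Malat1 does not tell their labels apart. Neurons of OTV:Malat1 animals ranged from 3.49% to 4.77%, and those of saline animals from 4.28% to 7.53%. In neurons the ranges were 4.36% to 7.11% with anti-TfR:Malat1 and 4.32% to 7.20% with the free oligonucleotide. Counts of 177175 neurons, 73200 oligodendrocytes, 8092 microglia, 4955 astrocytes and 1211 vascular nuclei followed the authors' labels, whose defining markers led in each (Rbfox3, Mbp, Csf1r, Slc1a2 and Flt1). The 7782 nuclei of cluster 13 were held apart: 7336 were labelled neurons, but Pdgfra (622 CPM), Vcan (1256 CPM), Cspg4 and Sox10, markers of oligodendrocyte precursors, led there and Rbfox3 was at 14.9 CPM against 453 CPM in neurons. Of all nuclei, 20326 carried a barcode seen in more than 1 animal, and each of the 136 pairs of animals shared between 50 and 110 barcodes.

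Positions are from the RefSeq annotation of GRCm38.p6, the build that mm10 names. Scn3a, Scn2a, Scn1a, Scn9a and Scn7a lie in the same region of chromosome 2, between 65457118 and 66784910. The other sodium alpha subunit genes lie elsewhere, Scn4a on chromosome 11 and Scn8a on chromosome 15. The 250 bases before the start site are shown for 2 members that part clearly between cell types below: Hcn2, which was highest in oligodendrocytes (chr10:79716384-79716633, plus strand), and the T-type gene Cacna1i, which was at 4.40% of its neuronal level there (chr15:80286988-80287237, plus strand). Capitals mark the letters GGGCGG (a GC box) or ACAAAG (a core that SOX factors bind) on either strand; these motifs do not overlap.
Hcn2: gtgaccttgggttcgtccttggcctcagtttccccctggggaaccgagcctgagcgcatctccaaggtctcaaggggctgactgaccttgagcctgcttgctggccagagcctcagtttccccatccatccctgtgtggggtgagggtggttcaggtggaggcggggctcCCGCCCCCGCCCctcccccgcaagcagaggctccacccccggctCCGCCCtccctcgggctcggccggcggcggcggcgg
Cacna1i: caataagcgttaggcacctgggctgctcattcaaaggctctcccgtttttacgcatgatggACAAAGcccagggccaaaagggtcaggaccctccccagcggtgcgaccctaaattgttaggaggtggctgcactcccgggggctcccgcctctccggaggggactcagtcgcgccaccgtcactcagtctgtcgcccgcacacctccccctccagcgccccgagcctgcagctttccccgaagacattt
The Hcn2 window held 3 GC boxes and no ACAAAG, and the Cacna1i window held 1 ACAAAG and no GC box. Each held 16 CG dinucleotides, against a median of 6 over all 32851 windows of the RefSeq table. A GC box was in 32.7% of all windows and in 13 of the 33 windows of the 23 members in the table, and ACAAAG in 16.5% of all windows and 9 of the 33. These matches describe the letters of the windows and not bound sites. Scn3a, Scn3b, Cacna1a, Cacna1g, Cacna1h, Cacna2d4 and Hcn3 were not matched.

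Most of the channel genes were highest in neurons. Among genes with a mean of 10 CPM or more over neurons, oligodendrocytes, astrocytes, microglia and cluster 13, 17 of 23 members (73.9%) were highest in neurons, against 15.8% of all 10571 such genes. The other 6 were highest in oligodendrocytes (Hcn2 and Cacna2d4), in microglia (Cacnb2 and Scn2b) or in cluster 13 (Scn3a and Nalcn). That is 8.70% of the members in each, beside 14.7%, 43.8% and 9.99% of all such genes. These are descriptions without a test. Over all members, 18 were higher in neurons than in the next of these sets in 17 of 17 animals. In these nuclei fewer cells of a subtype and less RNA per cell cannot be told apart.

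**Figure D1:**
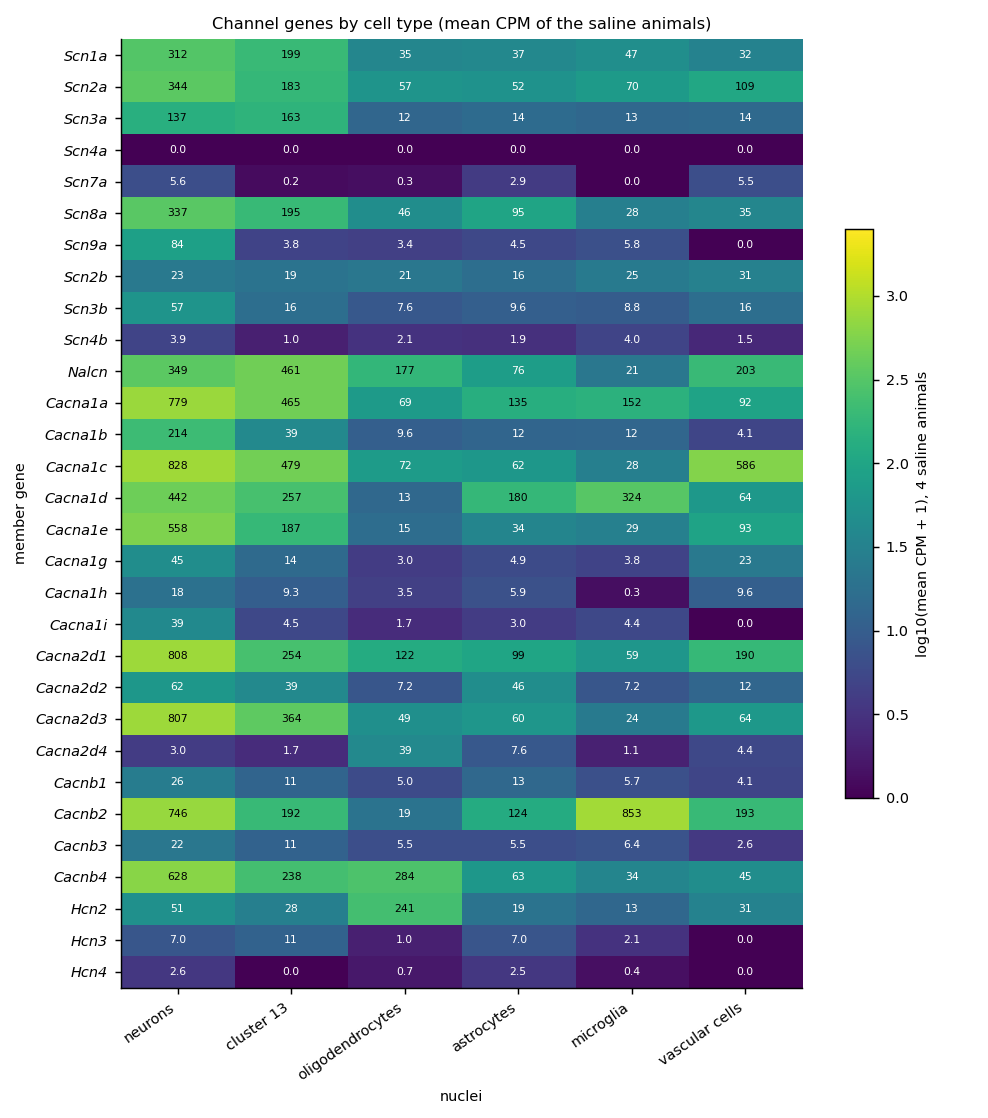
Mean CPM over the 4 saline animals for each channel gene (rows) in 6 sets of nuclei (columns), with colour on a log10(CPM + 1) scale. Most rows are brightest under neurons, while Hcn2 (241 CPM) and Cacna2d4 (39.1 CPM) are brightest under oligodendrocytes and Cacnb2 (853 CPM) under microglia.

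Sodium channel alpha subunits split into broad and sparse genes. Scn1a, a channel that inhibitory interneurons rely on to fire, was at 312 ± 16 CPM in neurons, 199 ± 11.8 CPM in cluster 13 and 35.5 ± 11.9 CPM in oligodendrocytes. Scn8a, the main channel of axon initial segments and nodes, was at 337 ± 14.7 CPM in neurons and 195 ± 15.2 CPM in cluster 13. Both were higher in neurons than in cluster 13 in every one of the 17 animals. Scn3a, a channel best known from the developing brain, went the other way, with 163 ± 13.7 CPM in cluster 13 and 137 ± 6.27 CPM in neurons, and was higher in cluster 13 in 16 of 17 animals. Scn9a, known from sensory neurons, was at 84.3 ± 6.48 CPM in neurons and 5.79 ± 4.08 CPM or less in cluster 13, astrocytes, microglia and oligodendrocytes. Scn4a, the skeletal muscle channel, had 3 UMIs in all 177175 neurons, and Scn7a, an atypical sodium-sensing relative, stood at 5.60 ± 0.22 CPM in neurons.

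Of the sodium beta subunits, Scn3b was the one clearly higher in neurons. Scn3b was at 57.2 ± 5.21 CPM in neurons and 15.8 ± 4.21 CPM in cluster 13, above astrocytes, microglia and oligodendrocytes. Scn2b was at 22.5 ± 4.04 CPM in neurons, 24.5 ± 17.7 CPM in microglia and 21.2 ± 8.22 CPM in oligodendrocytes, with overlapping ranges. Scn4b was at 3.92 ± 0.85 CPM in neurons and 4.04 ± 1.65 CPM in microglia, which also overlapped. Neuron markers were also counted outside neurons: in oligodendrocytes Stmn2 was at 59.9% of its neuronal level, and Snap25, Syt1, Meg3 and Rbfox3 at 16%, 6.23%, 4.72% and 3.28%. Scn2b there was at 94.3% of its neuronal level, above all 5, and Scn4b at 54.7%, above all but Stmn2. The part of neuronal RNA in levels outside neurons was not tested, here or for the genes below.

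Nalcn was highest in cluster 13. It was at 461 ± 28.2 CPM in cluster 13, 349 ± 9.75 CPM in neurons, 177 ± 31.6 CPM in oligodendrocytes and 21.0 ± 6.73 CPM in microglia. Cluster 13 exceeded neurons in 17 of 17 animals, without overlap of the ranges. The level in oligodendrocytes was 50.8% of that in neurons, under the share of Stmn2 and above those of the other 4 neuron markers, while the level in microglia was 6.03% of that in neurons.

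Among the calcium channel pores, all 8 were highest in neurons among these sets, 4 of them (Cacna1a, Cacna1c, Cacna1d and Cacna1h) by less than 2-fold over the next. Cacna1b, the N-type pore of presynaptic terminals, was at 214 ± 9.46 CPM in neurons and 39.0 ± 9.49 CPM in cluster 13, and Cacna1i was at 39.5 ± 1.81 CPM in neurons and 4.52 ± 2.98 CPM in cluster 13. The L-type pores differed from each other in their levels outside neurons. Cacna1c was at 828 ± 88.9 CPM in neurons, 586 ± 152 CPM in vascular nuclei, which hold mural cells in which this channel drives contraction, and 28.2 ± 7.89 CPM in microglia. In vascular nuclei Stmn2 was at 67.2% of its neuronal level and the other 4 neuron markers at 6.10% to 22.8%. Cacna1d was at 442 ± 13.9 CPM in neurons, 324 ± 67.2 CPM in microglia, 180 ± 21.3 CPM in astrocytes and 13.1 ± 3.82 CPM in oligodendrocytes. The microglial level of Cacna1d was 73.3% of the neuronal one, and its level in oligodendrocytes 2.96%. In microglia Stmn2 was at 92.6% of its neuronal level and the other 4 neuron markers at 6.04% to 21.1%. The R-type pore Cacna1e was at 558 ± 54.7 CPM in neurons and 187 ± 24.0 CPM in cluster 13.

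The auxiliary calcium channel subunits differed in their levels in glia. Cacnb2, a cytoplasmic beta subunit, was at 853 ± 70.0 CPM in microglia and 746 ± 31 CPM in neurons, and was higher in microglia in 15 of 17 animals. Over the 17 animals it ran from 687 to 996 CPM in microglia and from 718 to 857 CPM in neurons, so the ranges overlapped. The microglial level of Cacnb2 was 114% of the neuronal one, above the share of each of the 5 neuron markers there. In oligodendrocytes Cacnb2 was at 19.0 ± 5.93 CPM, 2.55% of its neuronal level. Cacnb4, a beta subunit whose loss causes ataxia in mice, was at 628 ± 33.5 CPM in neurons, 284 ± 35.5 CPM in oligodendrocytes and 34.4 ± 10.1 CPM in microglia. Its level in oligodendrocytes was 45.2% of that in neurons, under the share of Stmn2 and above those of the other 4 neuron markers. Of the alpha2delta genes, Cacna2d1 (a gabapentin-binding subunit) and Cacna2d3 were at 808 ± 39.4 and 807 ± 24.2 CPM in neurons and at 59.4 ± 18.5 and 24.2 ± 1.91 CPM in microglia. Cacna2d2 was at 62.2 ± 10.9 CPM in neurons and 45.6 ± 15.4 CPM in astrocytes, with overlapping saline ranges. Its astrocyte level was 73.3% of the neuronal one, beside 56.8% for Stmn2 and 4.50% to 13.2% for the other 4 neuron markers in astrocytes.

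Cacna2d4, an alpha2delta subunit known from photoreceptor terminals, and Hcn2 were highest in oligodendrocytes. Cacna2d4 was at 45.1, 34.5, 42.6 and 34.1 CPM in oligodendrocytes of the saline animals (39.1 ± 5.59) and at 3.02 ± 0.54 CPM in their neurons. Hcn2, which codes for a channel of thalamic and cortical pacemaking, was at 277, 245, 252 and 191 CPM in oligodendrocytes of the saline animals (241 ± 36.1) and 50.7 ± 3.66 CPM in their neurons, a ratio of 4.76. Both genes were higher in oligodendrocytes in 17 of 17 animals, and the ranges of the 2 cell types did not overlap. The remaining HCN genes were sparse: Hcn3 was at 10.6 ± 6.83 CPM in cluster 13 and 7.03 ± 0.96 CPM in neurons, and Hcn4 at 2.55 ± 0.30 CPM in neurons. In the plot of 4 channel genes by animal, the ranges of neurons and oligodendrocytes do not overlap for any of them.

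**Figure D2:**
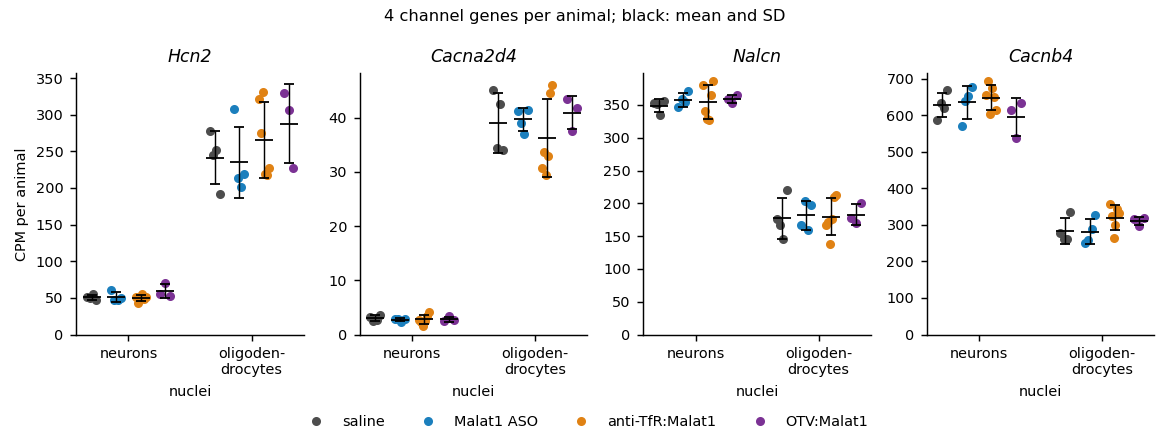
CPM of Hcn2, Cacna2d4, Nalcn and Cacnb4 in each animal (points), in neurons and oligodendrocytes, coloured by group, with the mean and SD in black. Hcn2 lies between 191 and 331 CPM in oligodendrocytes and between 43.4 and 69.9 CPM in neurons, whatever the group.

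Within neurons, the authors' clusters differed strongly in their channel genes. Of 13 neuron clusters, 10 (numbered 1, 3 to 10 and 12) were compared by the level of each member in saline. Among genes at 10 CPM or more with counts in every cluster, the median ratio of the highest to the lowest cluster was 3.00 over 24 members and 1.79 over all 9370 genes. The clusters were made from these same nuclei, so these values describe them and are not tested. For 15 members the cluster that was highest in saline was highest in all 17 animals. The markers gave names to some: cluster 12 was thalamic-like (5 of 5 markers highest there, among them Tcf7l2 and Prkcd), 9 dentate granule-like (4 of 4, with Prox1 and Dsp), 10 striatal-like (5 of 5, with Drd1 and Drd2), 7 deep-layer-like (4 of 5, with Foxp2 and Tle4), 3 layer 4-like (3 of 4, with Rorb; 3 of 4 upper-layer markers, such as Cux2, were also highest there), and 1 and 4 GABAergic-like, which held the highest levels of Gad1, Gad2 and Slc32a1. Clusters 17 and 18 were not compared, because Pdgfra and Vcan, markers of oligodendrocyte precursors, led cluster 17 (97.0% doublet calls) and Inpp5d and other microglial genes led cluster 18 (85.4%), against their neuron label. Clusters 5, 6 and 8 stay unnamed, and the authors' doublet calls covered 62.0% of cluster 6 and 44.9% of cluster 4.

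**Figure D3:**
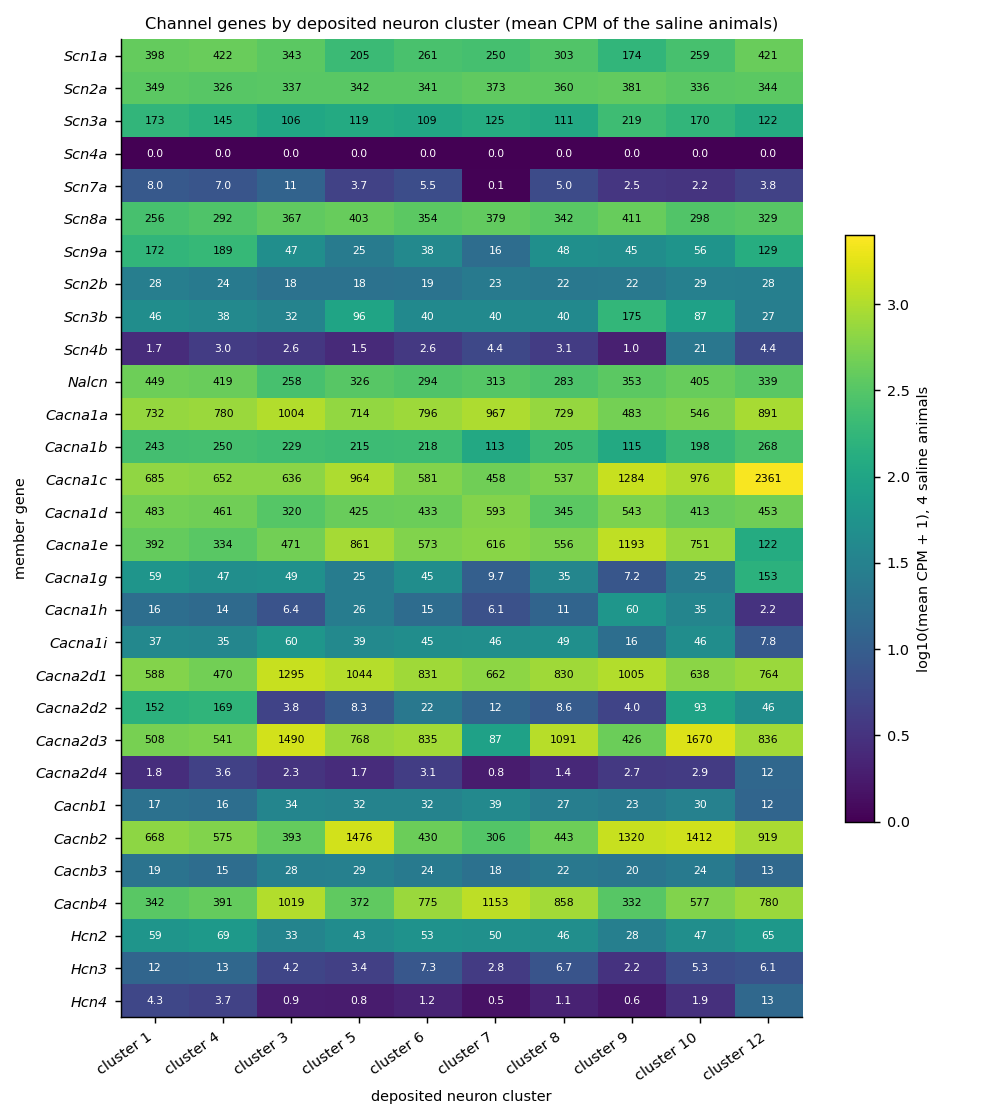
Mean CPM over the 4 saline animals for each channel gene (rows) in 10 deposited neuron clusters (columns), with colour on a log10(CPM + 1) scale. Cacna1c reaches 2361 CPM in cluster 12, Cacna1e falls from 1193 CPM in cluster 9 to 122 CPM in cluster 12, and Scn2a stays between 326 and 381 CPM.

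Thalamic-like nuclei of cluster 12 combined the L-type Cacna1c with the T-type Cacna1g, a pore that drives thalamic burst firing. Cacna1c was at 2361 ± 237 CPM there and 1284 ± 135 CPM in cluster 9, the next highest, and Cacna1g at 153 ± 9.05 CPM there and 58.5 ± 5.51 CPM in cluster 1. Hcn4 stood at 13 ± 1.84 CPM against 4.28 ± 0.95 CPM in cluster 1, and Cacna2d4 at 12.5 ± 2.66 CPM against 3.55 ± 0.94 CPM in cluster 4. Cacna1b was also highest in cluster 12, at 268 ± 11.3 CPM, close to the 250 ± 14.1 CPM of cluster 4. All 5 genes were highest in cluster 12 in 17 of 17 animals. The same cluster had the lowest level of Cacna1e (122 ± 18.1 CPM), Cacna1i (7.77 ± 1.43 CPM), Cacna1h (2.18 ± 1.40 CPM) and Scn3b (27.2 ± 1.07 CPM), so the T-type genes did not share 1 pattern.

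Dentate granule-like nuclei of cluster 9 were highest in 3 genes that were lowest in cluster 12 (Cacna1e, Cacna1h and Scn3b). Cacna1e was at 1193 ± 70.6 CPM, against 861 ± 82.4 CPM in cluster 5, and Cacna1h at 60.5 ± 4.58 CPM, against 34.6 ± 4.60 CPM in cluster 10. Scn3b was at 175 ± 7.63 CPM, against 96.5 ± 10.0 CPM in cluster 5, and Scn3a at 219 ± 14.3 CPM, against 173 ± 5.92 CPM in cluster 1. Each of these 4 was highest in cluster 9 in every animal. Scn8a was at 411 ± 16.9 CPM there and 403 ± 17.6 CPM in cluster 5, and these ranges overlapped. Scn1a (174 ± 14.4 CPM), Cacna1a (483 ± 38.9 CPM), Cacnb4 (332 ± 14.9 CPM), Cacna1g (7.16 ± 1.10 CPM) and Hcn2 (28.1 ± 1.41 CPM) were lowest there.

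**Figure D4:**
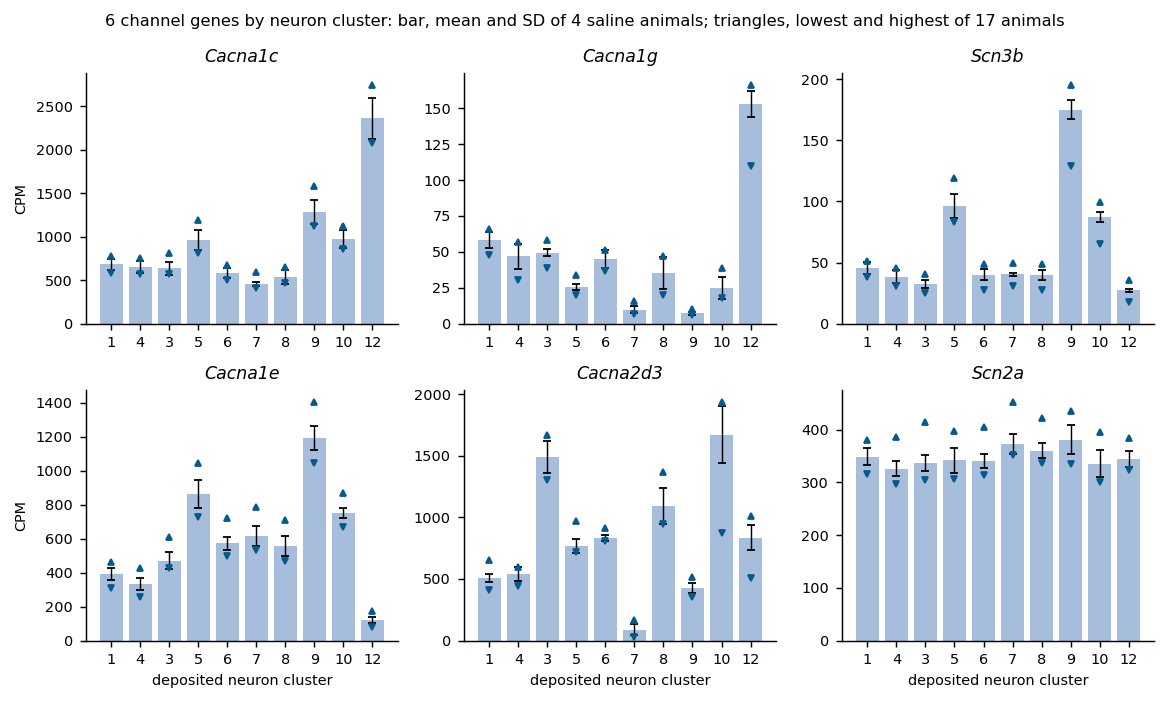
CPM of 6 channel genes in 10 deposited neuron clusters: bars and error bars are the mean and SD of 4 saline animals, triangles the lowest and highest of 17 animals. The lowest of 17 animals for Cacna1c in cluster 12 (2081 CPM) lies above the highest in cluster 9 (1588 CPM), whereas the clusters overlap throughout for Scn2a.

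The GABAergic-like clusters 1 and 4 shared high Scn1a, Scn9a, Cacna2d2, Nalcn and Hcn2, though cluster 12 was above cluster 1 for Scn1a and Hcn2. Cacna2d2, the alpha2delta subunit lost in the ducky mouse, was at 169 ± 20.2 CPM in cluster 4 and 152 ± 21.0 CPM in cluster 1, and at 3.78 ± 0.75 CPM in the layer 4-like cluster 3. Scn9a was at 189 ± 14.6 and 172 ± 10.9 CPM in these clusters and 15.6 ± 4.68 CPM in cluster 7. Scn1a was at 422 ± 26.4 CPM in cluster 4 and 421 ± 9.36 CPM in cluster 12, which did not differ beyond their spread. Nalcn was highest in cluster 1 in every animal (449 ± 14.4 CPM), followed by cluster 4 (419 ± 23.3 CPM), with overlapping saline ranges. Hcn2 stood at 69.1 ± 5.49 CPM in cluster 4, 64.7 ± 7.05 CPM in cluster 12 and 58.6 CPM in cluster 1, where Scn1a was at 398 CPM. After clusters 1 and 4, the next highest was cluster 10 for Nalcn (405 CPM) and Cacna2d2 (92.6 CPM). For Scn9a it was cluster 12 (129 CPM).

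The striatal-like cluster 10 stood out by Scn4b, the beta subunit behind resurgent sodium current. Scn4b was at 21.4 ± 7.11 CPM there and 4.44 ± 1.18 CPM in cluster 12, the next highest, and cluster 10 was highest in 16 of 17 animals. Cacna2d3 was at 1670 ± 232 CPM in cluster 10 and 1490 ± 130 CPM in cluster 3, with overlapping ranges, and was highest in cluster 10 in 9 of 17 animals. Its lowest level, 87.5 ± 43.7 CPM, was in the deep-layer-like cluster 7. That cluster led in Cacnb4 (1153 ± 45.7 CPM, in 16 of 17 animals) and in the L-type Cacna1d (593 ± 16.4 CPM, in 17 of 17), which was at 543 ± 23.6 CPM in cluster 9 with overlapping saline ranges. Cacnb1 was at 38.8 ± 11.1 CPM there and 34.3 ± 5.85 CPM in cluster 3, with overlapping ranges. The layer 4-like cluster 3 led in Cacna2d1, at 1295 ± 39.4 CPM against 1044 ± 68.9 CPM in cluster 5 and highest in 17 of 17 animals, and in Scn7a, at 11 ± 1.15 CPM against 7.96 ± 0.33 CPM in cluster 1 and highest in 13 of 17. Cacna1a was at 1004 ± 50.6 CPM in cluster 3 and 967 ± 57.4 CPM in cluster 7, with overlapping saline ranges, and was highest in cluster 3 in 15 of 17 animals. Cacna1i was at 60.2 ± 6.80 CPM in cluster 3 and 48.8 ± 5.14 CPM in cluster 8, also with overlapping saline ranges, and was highest in cluster 3 in 17 of 17. Cacnb2 was at 1476 ± 47.7 CPM in cluster 5, 1412 ± 60.4 CPM in cluster 10 and 1320 ± 66.2 CPM in cluster 9, and at 306 ± 42.8 CPM in cluster 7, while Cacnb3 was at 29.3 ± 4.39 CPM in cluster 5 and 28.2 ± 5.52 CPM in cluster 3. Scn2b ran from 18 ± 4.28 CPM in cluster 3 to 28.9 ± 7.44 CPM in cluster 10, and Hcn3 was at 12.7 ± 1.97 CPM in cluster 4 and 12 ± 1.66 CPM in cluster 1.

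Across clusters, some pairs of members went together and others went opposite ways. Over 276 pairs of 24 members, the Pearson correlation of log2 levels across the 10 clusters had a median of -0.02. It was highest for Cacna1b with Cacna1g (0.93) and Scn3b with Cacna1h (0.89), and lowest for Scn8a with Cacna2d2 (-0.90) and Cacna1c with Cacna1i (-0.88). The clusters share animals and libraries, so these values carry no p. Scn2a was the most even, from 326 ± 14.1 CPM in cluster 4 to 381 ± 27.4 CPM in cluster 9, a span of 0.23 on the log2 scale.

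Cluster 16 was unevenly sampled and did not hold the same cells in all animals. In 4 animals (Malat1 ASO replicate 3, anti-TfR:Malat1 replicates 1 and 2, and OTV:Malat1 replicate 1) it held 363 to 1249 nuclei with the cerebellar granule markers Gabra6 (522 to 583 CPM), Cbln3 and Etv1, and in the other 13, saline included, 22 to 93 nuclei with Gabra6 at 42.5 CPM on average. Ndnf, a marker of other neurons, was at 583 CPM in those 13 and 90.0 CPM in the 4, while Reln was high in both, at 2934 and 1495 CPM. In those 4 animals the P/Q-type pore Cacna1a was at 1915 ± 218 CPM (SD, n = 4), 1.90 times the next cluster of the same animals, and Scn2a at 830 ± 60.7 CPM, 2.04 times the next. Scn2b was at 62.2 ± 13.4 CPM, 2.15 times the next. Cacnb4 was at 1198 ± 101 CPM, beside 1177 CPM in cluster 7. Cacnb2 (127 ± 51.2 CPM), Scn3b (12.8 ± 4.58 CPM), Scn3a (33.6 ± 11.4 CPM) and Cacna1h (3 UMIs) were below the lowest of the 10 other clusters. In the other 13 animals Cacna1a was at 910 CPM, Scn2a at 350 CPM, Cacnb4 at 474 CPM and Scn3a at 130 CPM on average, each below the highest of the other clusters. Scn2b was still highest on average in cluster 16 there, at 41.4 ± 19.7 CPM (SD, n = 13), against 27.6 CPM in cluster 1. It had 40 UMIs in all and ranged from 0 to 79.8 CPM over these animals. Cacna2d2 was also highest in cluster 16 there, at 314 ± 66.3 CPM from 288 UMIs, against 175 CPM in cluster 4. Nalcn was at 470 ± 124 CPM, beside 450 CPM in cluster 1.

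Against this spread between cells, no channel gene passed the threshold in any treatment comparison. UMIs were summed per animal and fitted with edgeR's quasi-likelihood test over all genes, with Benjamini-Hochberg adjustment over all genes tested. In neurons 29 of the 30 members passed the filter on low counts, Scn4a being the exception, and 0 of 29 had an adjusted p under 0.05 in each of the 4 comparisons, as did 0% of the 20728 genes tested. At an unadjusted p under 0.05 there were 0 members for OTV:Malat1 against saline (1.16% of all genes), 0 for anti-TfR:Malat1 against saline (1.23%), 0 for Malat1 ASO against saline (0.632%) and 1 for OTV:Malat1 against anti-TfR:Malat1 (2.06%). DESeq2 also called 0 members in each. The 3 comparisons with saline share the saline animals.

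The estimates were small and for most members narrow. In neurons the log2 fold changes of the 29 members ran from -0.24 (Cacnb1) to 0.16 (Hcn2) for OTV:Malat1 against saline, from -0.29 (Scn4b) to 0.12 (Cacna1e) for anti-TfR:Malat1, and from -0.14 (Cacna2d4) to 0.18 (Scn4b) for Malat1 ASO. For OTV:Malat1 against anti-TfR:Malat1 they ran from -0.21 (Cacnb4) to 0.17 (Scn4b). The 95% interval lay within 0.5 of zero for 25, 26, 27 and 27 of the 29 members in these comparisons. Medians over the members were -0.07, 0.02, 0.03 and -0.07, beside medians between 0.00 and 0.01 over all genes. Over 29 alternative fits the median for OTV:Malat1 against saline ran from -0.09 to -0.01, while those for anti-TfR:Malat1 (-0.01 to 0.03) and Malat1 ASO (-0.01 to 0.06) against saline and for OTV:Malat1 against anti-TfR:Malat1 (-0.10 to 0.02) took either sign. Estimates were above zero for 5, 18, 20 and 4 of the 29 members, beside 50.7%, 48.7%, 48% and 52.9% of all genes.

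**Figure D5:**
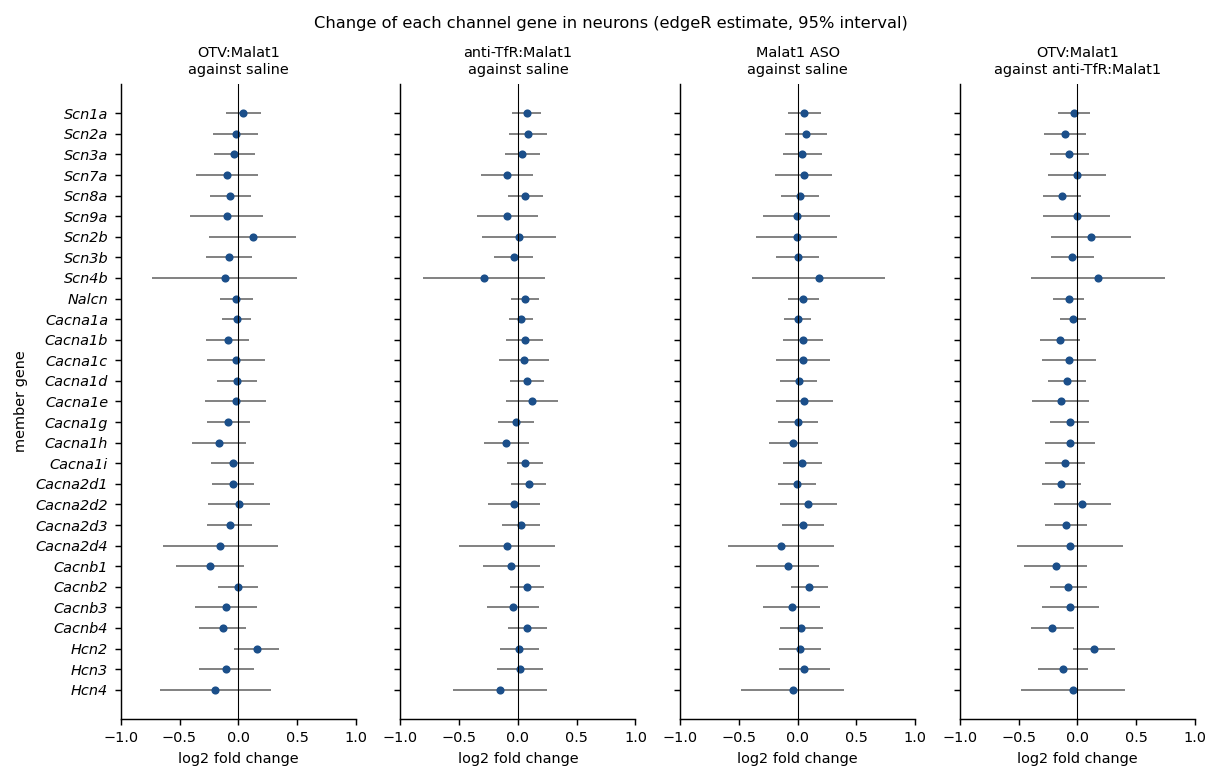
Log2 fold change of 29 channel genes in neurons (points) with 95% intervals (lines) from edgeR, 1 panel for each of the 4 comparisons. The points lie between -0.29 and 0.18, and the intervals are widest for the low-count genes Scn4b, Hcn4 and Cacna2d4.

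The printed CPM and the fitted changes are on different scales for OTV:Malat1. The TMM factors in the fit took up a shift: scaled by library totals alone, the median of all genes in neurons was 0.11 for OTV:Malat1 against anti-TfR:Malat1 and 0.06 against saline, and in oligodendrocytes 0.15 and 0.20. On that scale the median of the members in neurons was 0.02 and -0.01. These values equal the upper ends of the ranges over alternative fits given above for the same comparisons. Each lay below the median of all genes on that scale, so those ends go with the change of scale. Changes below are relative to the TMM scale.

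The members with the smallest p in neurons show how far animals spread. Cacnb4 was at 616, 537 and 633 CPM in the OTV:Malat1 animals and at 604 to 693 CPM (median 652) in the anti-TfR:Malat1 animals, with 588 to 670 CPM in saline. One OTV:Malat1 animal was the lowest of all 17, and the others overlapped the anti-TfR:Malat1 animals. The log2 change between them was -0.21 ± 0.09 (SE; edgeR adjusted p = 0.995), and within batches 2, 3 and 4 the log2 ratio of CPM was -0.17, -0.25 and 0.00. Against the saline animal of the same batches the ratio for Cacnb4 was -0.04, -0.21 and -0.08. Cacnb1 was at 23.0, 22.6 and 23.3 CPM in OTV:Malat1 and 31.1, 23.4, 21.8 and 27.9 CPM in saline, a log2 change of -0.24 ± 0.14 (edgeR adjusted p = 1.00), with overlap. Hcn2 was at 54.8, 69.9 and 52.4 CPM in neurons of OTV:Malat1 and 50.8, 50.1, 55.3 and 46.4 CPM in saline, a log2 change of 0.16 ± 0.09 (edgeR adjusted p = 1.00). Only the second OTV:Malat1 animal was above every saline animal for Hcn2. The summed level of 5 oligodendrocyte markers in neurons of that animal was 544 CPM, beside 302 to 420 CPM in the other animals. The part of oligodendrocyte RNA in its Hcn2 value was not tested. On the unscaled CPM, the log2 ratio of Hcn2 to the saline animal of batches 2, 3 and 4 was 0.13, 0.34 and 0.17.

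For anti-TfR:Malat1 the members nearest to a change were Cacna2d1, Scn1a and Scn4b. Cacna2d1 was at 826 to 876 CPM (median 836) in anti-TfR:Malat1 and 804, 779, 785 and 865 CPM in saline, a log2 change of 0.09 ± 0.07, and these groups overlapped. Scn4b was at 2.04 to 4.34 CPM in anti-TfR:Malat1 and 3.58, 4.37, 4.83 and 2.90 CPM in saline, a log2 change of -0.29 ± 0.25. Its log2 ratio of mean CPM in batches 1 to 4 was -0.81, -0.77, -0.49 and 0.34. The striatal-like cluster 10, where Scn4b was highest, made up 3.45% to 7.73% of neurons in anti-TfR:Malat1 and 7.26% to 8.24% in saline; its part in the value of Scn4b was not tested. For Malat1 ASO, Cacnb2 was at 721, 857, 751 and 843 CPM against 728, 733, 728 and 792 CPM in saline (0.10 ± 0.07), and Scn1a at 300, 313, 329 and 348 CPM against 291, 321, 311 and 327 CPM (0.06 ± 0.07). Scn2a was at 325, 355, 357 and 396 CPM in Malat1 ASO and 332, 340, 337 and 369 CPM in saline (0.07 ± 0.08). The adjusted p of each of these by edgeR rounds to 1.00.

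The rest of the named members were Cacna1h and Cacna1b. Cacna1h was at 15.9, 16.1 and 17.2 CPM in OTV:Malat1 and 18.4, 15.7, 16.4 and 19.9 CPM in saline, a log2 change of -0.16 ± 0.11. Cacna1b was at 202, 199 and 228 CPM in OTV:Malat1 and 199 to 232 CPM in anti-TfR:Malat1, a log2 change of -0.14 ± 0.08. Cacna2d1 had a change of -0.14 ± 0.08 between the same groups, from 891, 725 and 831 CPM in OTV:Malat1. In each case the groups overlapped.

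In oligodendrocytes, where Malat1 was lowest under OTV:Malat1, 27 members were tested and 0 passed, while 0.0214% of the 14012 genes tested did for OTV:Malat1 against saline and 0.00714% for OTV:Malat1 against anti-TfR:Malat1 (0% in the other comparisons, by edgeR). Hcn2 in oligodendrocytes was at 330, 306 and 227 CPM in OTV:Malat1, 218 to 331 CPM (median 252) in anti-TfR:Malat1 and 307, 213, 201 and 219 CPM in Malat1 ASO, beside 191 to 277 CPM in saline. The groups overlapped, and the log2 change for OTV:Malat1 against saline was 0.06 ± 0.19 with a 95% interval from -0.33 to 0.45. On the unscaled CPM, its log2 ratio to the saline animal of batches 2, 3 and 4 was 0.43, 0.28 and 0.25. For anti-TfR:Malat1 that ratio for Hcn2 was 0.21, 0.17, 0.13 and 0.22 in batches 1 to 4. Both sets of ratios were above zero in every batch that held the 2 groups, but the share of all genes with such ratios is not given here. In batch 3 the anti-TfR:Malat1 animals were at 331 and 219 CPM, on either side of the saline animal at 252 CPM. The fitted log2 change of Hcn2 for anti-TfR:Malat1 against saline was 0.07 ± 0.16. On the unscaled CPM the median of all genes was also above zero for OTV:Malat1 against saline, as given above. The fit without a batch term gave no call, and with batch as a block 0 members were called as well. Cacna2d4 was at 43.5, 37.6 and 41.7 CPM in OTV:Malat1 and had a log2 change of -0.13 ± 0.16, with all 3 animals within the saline range of 34.1 to 45.1 CPM. Nalcn and Cacnb4 had log2 changes of -0.15 ± 0.15 and -0.06 ± 0.12 in the same comparison. For anti-TfR:Malat1 the ratio of Cacnb4 to saline in batches 1 to 4 was 0.37, 0.30, 0.11 and 0.01. The precision was lower in oligodendrocytes, where the 95% interval lay within 0.5 of zero for 8 or 9 of 27 members in each comparison. Against saline the log2 changes of the 27 members ran from -0.26 (Cacna1h) to 0.58 (Cacnb3) for OTV:Malat1. They ran from -0.17 (Cacna2d4) to 0.60 (Cacna1e) for anti-TfR:Malat1 and from -0.33 (Cacna1g) to 0.55 (Cacna1e) for Malat1 ASO. For OTV:Malat1 against anti-TfR:Malat1 the range was -0.53 (Cacnb2) to 0.56 (Scn4b). The median log2 change of the 27 members was 0.06 for OTV:Malat1, 0.16 for anti-TfR:Malat1 and 0.04 for Malat1 ASO against saline, and -0.13 for OTV:Malat1 against anti-TfR:Malat1, beside medians from -0.01 to 0.02 over all genes. Over 28 alternative fits the median for OTV:Malat1 against saline ran from -0.04 to 0.25, with 0.16 under the replicate block and -0.01 with batch as a block, so neither its sign nor its size is settled; for Malat1 ASO it ran from -0.07 to 0.20. The medians for anti-TfR:Malat1 against saline (0.12 to 0.23) and for OTV:Malat1 against anti-TfR:Malat1 (-0.19 to -0.01) kept their sign. The summed level of 5 neuron markers in oligodendrocytes, all of them detected in every animal, was 861 to 1201 CPM in OTV:Malat1, 785 to 1164 CPM in anti-TfR:Malat1, 579 to 1420 CPM in Malat1 ASO and 605 to 951 CPM in saline. Its part in these medians was not tested.

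At an unadjusted p under 0.05 in oligodendrocytes there was 1 member, Cacna1e for anti-TfR:Malat1 against saline, beside 1.79% of all genes; the other comparisons had 0, beside 2.7% of genes for OTV:Malat1 and 0.828% for Malat1 ASO against saline, and 2.61% for OTV:Malat1 against anti-TfR:Malat1. Cacna1e was at 18.9 to 28.6 CPM in anti-TfR:Malat1 and 12 to 23 CPM in saline oligodendrocytes, a log2 change of 0.60 ± 0.28 (edgeR adjusted p = 1.00), and at 558 CPM in saline neurons. The part of the neuron markers given above in the value of Cacna1e was not tested. Over all nuclei 0 of 29 members passed in each comparison, as did 0% of the 21375 genes. With p unadjusted, 0 members were under 0.05 for OTV:Malat1, anti-TfR:Malat1 and Malat1 ASO against saline (1.11%, 1.21% and 0.604% of all genes) and 1, Cacnb4, for OTV:Malat1 against anti-TfR:Malat1 (1.61%).

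The other cell types and the clusters of neurons gave 0 calls as well. Astrocytes, microglia, perivascular macrophages, vascular nuclei and cluster 13 were fitted with 15, 16, 1, 9 and 23 members, and 0 passed in 4 comparisons, beside 0.00155% of all tests on genes there (0.0031% for OTV:Malat1 against saline, 0.0031% for OTV:Malat1 against anti-TfR:Malat1 and 0% for the others, by edgeR). At an unadjusted p under 0.05 there were 4 of 256 tests on members, beside 3.37% of all. These were 0 for OTV:Malat1 (4.04% of all genes), 3 for anti-TfR:Malat1 (2.86%) and 1 for Malat1 ASO (2.58%) against saline, and 0 for OTV:Malat1 against anti-TfR:Malat1 (4.01%). The 4 were Cacna1e (0.59) and Scn3a (0.98) in microglia and Cacna2d1 (0.71) in vascular nuclei for anti-TfR:Malat1, and Scn2a (-1.24) in vascular nuclei for Malat1 ASO, as log2 changes. In microglia the saline level of Cacna1e was 5.25% of that in neurons and of Scn3a 9.13%, and the 5 neuron markers there ranged from 6.04% to 92.6%; the part of neuronal RNA in these values was not tested. In 13 neuron clusters 0 of 1376 tests on members passed, as did 0% of 660592 tests on genes, and 32 had an unadjusted p under 0.05, beside 2.49%. Of these 32, 19 fell to OTV:Malat1 against anti-TfR:Malat1 (5.52% of 344 tests on members, beside 3.43% of all genes), and 18 of the 19 estimates were negative, beside 50.8% of those of all genes under the same threshold. Cacnb4 gave 4 of the 19, in clusters 3, 6, 7 and 12, with log2 changes of -0.30, -0.20, -0.21 and -0.19. Against saline there were 6 for OTV:Malat1 (2.62% of all genes), 4 for anti-TfR:Malat1 (2.39%) and 3 for Malat1 ASO (1.53%). Cacnb4 in cluster 3 was among those for OTV:Malat1 (-0.25). The 13 clusters include 16, 17 and 18, described above; without them 15 of 281 tests on members for OTV:Malat1 against anti-TfR:Malat1 had an unadjusted p under 0.05, 14 of them negative, beside 3.29% of all genes, of which 50.4% were negative. Clusters come from the same animals and are not separate replicates, and the smallest adjusted p of a member in that comparison, by edgeR, was 0.841 in cluster 17 and 0.901 without clusters 16 to 18.

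Genes of proteins that bind, anchor or regulate these channels, listed together with channel family genes outside the members, also gave 0 calls. Of 35 such partner genes, 34 were in the matrix and were tested in neurons, where 0 passed in each comparison. Their median log2 change from saline was -0.06 with OTV:Malat1, 0.06 with anti-TfR:Malat1 and 0.01 with Malat1 ASO, and it was -0.10 between the 2 TfR-binding agents. In oligodendrocytes 28 were tested and 0 passed. Their median there was 0.04 with OTV:Malat1, 0.24 with anti-TfR:Malat1 and 0.10 with Malat1 ASO against saline, and -0.14 between the 2 TfR-binding agents. For anti-TfR:Malat1 against saline 25 of the 28 estimates were above zero, beside 48.3% of all genes, with the neuron markers in oligodendrocytes as given above. Of all these tests on partners, 4 had an unadjusted p under 0.05, and their genes are named here after their values were seen. In neurons these were 1 of 34 for anti-TfR:Malat1 against saline (1.23% of all genes) and 1 for OTV:Malat1 against anti-TfR:Malat1 (2.06%). In oligodendrocytes they were 1 of 28 in each of these comparisons (1.79% and 2.61%). The other comparisons had 0, beside 0.632% to 1.16% of all genes in neurons and 0.828% to 2.7% in oligodendrocytes. Cacng8, a subunit of AMPA receptors related to calcium channel gamma subunits, had log2 changes of 0.78 ± 0.23 for anti-TfR:Malat1 against saline and -0.53 ± 0.24 for OTV:Malat1 against anti-TfR:Malat1 in oligodendrocytes, 2 comparisons that share the anti-TfR:Malat1 animals (edgeR adjusted p = 1.00 and 0.991). In neurons Scn10a, a sodium channel of sensory neurons, had a log2 change of -1.16 ± 0.38 for anti-TfR:Malat1 against saline (edgeR adjusted p = 1.00). Cacng2, of the same family as Cacng8, had one of -0.18 ± 0.08 for OTV:Malat1 against anti-TfR:Malat1 (edgeR adjusted p = 0.995).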

How the data were processed

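Per the file headers, the deposited matrix holds whole-number UMI counts for 26131 genes and 284074 nuclei, and the authors deposited a cell type label, cluster numbers at a resolution of 0.4, doublet calls (47758 nuclei) and a batch number of unstated meaning. Per the submitters' processing notes, Cell Ranger 6.0.1, Seurat 4 and mm10 were used; the use of introns or strand in counting is not stated there. The sum of each nucleus was checked against the deposited total counts. Other per-nucleus values of the metadata, 11 columns, were not used. Per the labels, other columns name the sample of each nucleus and were used to group nuclei.

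UMIs were summed per animal over nuclei whose label and cluster went together; 10832 nuclei fell into no set but stayed in the sums over all nuclei, and doublets were kept. Animals needed 20 nuclei of a set. Genes were filtered with filterByExpr, scaled by TMM and fitted over all 17 animals with edgeR 4.0.16 (glmQLFit, glmQLFTest; R 4.3.3, limma 3.58.1), two-sided, with Benjamini-Hochberg adjustment over all genes and a threshold of 0.05. The fit was tested on simulated data. Levels were computed in Python 3.11.15 (numpy 2.4.6, pandas 2.3.3); figures used matplotlib 3.10.9. The named genes are members past the threshold and, in neurons, the 3 with the smallest unadjusted p in each comparison. In oligodendrocytes the changes of Hcn2, Cacna2d4, Nalcn and Cacnb4, the genes plotted by animal, are given outside this rule. They were not picked by p, and none of them passed the threshold. Some members with an unadjusted p under 0.05 in other sets are also named. Cluster and type levels were not tested. The members and lists were chosen with earlier results of these data known. Alternatives were DESeq2 1.42.0, other scalings, no filter, blocks, doublets left out, deeper nuclei, labels as given, and leaving out each animal. The scale by library totals and neurons, or counts over neuron clusters, without clusters 16 to 18 were chosen after seeing the data. The windows before start sites are from RefSeq (GRCm38.p6).

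The depth was 55393588 to 79866411 UMIs per animal.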

Additional observations from a re-analysis of the deposited data

Results flagged for a closer look

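Of 48 groups of 4 to 10 animals checked for 1 animal far from the others, 2 were picked out, and chance alone picks about 1 in 20. In neurons, Cacnb2 of saline replicate 4 was at 792 CPM, with the next saline animal at 733 CPM. In oligodendrocytes, Hcn2 of Malat1 ASO replicate 1 was at 307 CPM, with the next animal of that group at 219 CPM.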

How the results depend on the processing

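Counts of members past the threshold were 0 in neurons, oligodendrocytes and all nuclei under each of 84 alternative fits, among them those without 1 animal each (lowest 0, highest 0), and 0 in neuron clusters with batch as a block or without the authors' doublets. The smallest adjusted p of a member under any was 0.319 (Cacnb3 in oligodendrocytes, OTV:Malat1 against saline, library totals only, log2 change 0.78). The 12 named changes in neurons kept their direction throughout. They were picked by the smallest p and refitted on the same animals, so this is not separate evidence for them. The change of Cacnb4 for OTV:Malat1 against anti-TfR:Malat1 ran from -0.28 to -0.10. Of 21 pairs of samples with the same number in different groups, 8 had a correlation over 0.1, beside 24 of 85 pairs with other numbers. Of the 11 same-number pairs from different batches 1 did, with a median of -0.11, so the numbers are not taken to pair samples. With a replicate block the members called stayed at 0. The number of members with an unadjusted p under 0.05 for anti-TfR:Malat1 against saline went from 0 to 2 in neurons. It went from 1 to 4 in oligodendrocytes and from 0 to 2 in all nuclei. For OTV:Malat1 against anti-TfR:Malat1 it went from 1 to 3 in all nuclei, and for OTV:Malat1 against saline from 0 to 1 in oligodendrocytes. Of 27 pairs of samples of different groups in the same batch, 19 had a correlation over 0.1 (median 0.18, beside -0.05 for 79 pairs of other batches), so animals of a batch deviated together, and the reported fit has no batch term. With batch as a block, members with an unadjusted p under 0.05 for OTV:Malat1 against anti-TfR:Malat1 went from 1 to 4 in neurons. They went from 1 to 3 in all nuclei and from 0 to 1 in oligodendrocytes. For OTV:Malat1 against saline they went from 0 to 1 in neurons and in all nuclei. The share of all genes under this threshold was not counted in the fits with either block. The changes in these counts are therefore not read as particular to the members. Genes under about 10 CPM, such as Hcn4, Scn4b and Cacna2d4 in neurons, and the smaller cell types are limited by depth.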
